A study of Labroides dimidiatus with 18 samples.

Results

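The 100 most abundant gene models of the cleaner wrasse forebrain are described here. They were chosen by level alone: counts in each library were scaled to a common total over all gene models (CPM), and the models with ranks 1 to 100 by mean CPM over 17 fish were taken. These members are 100 of 28134 gene models (0.355%), or 0.656% of the 15236 with at least 1 count in those fish. Watson's Bay fish 19 was left out of the ranking. Because the ranking used these levels, the levels and the share of the library are given as a description with no test.

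The study profiled 18 female Labroides dimidiatus, a reef fish that lives by picking parasites off other fish. Each library came from 1 frozen slice of 300 µm of the forebrain with the pallial areas Dl and Dm and parts of the septum and striatum. Libraries were made by 3' tag sequencing, which reads the 3' end of polyadenylated RNA. Levels of different gene models are therefore compared without a correction for length. On average 68.4% of records in the 17 fish of the ranking fell outside gene models. Whether each model reaches the 3' end of its transcript was not checked, so ranks describe counts within these models. The fish came from 4 sites. Those at Clam Gardens (n = 3) and The Crest (n = 5) are labelled high density, and those at Osprey (n = 7) and Watson's Bay (n = 3) low density. What is counted in the density is not stated in the labels, nor are age or any further treatment. All fish were killed 6 to 28 minutes after capture and kept in RNAlater for 3 hours on average. Each density is 2 sites, so density and these particular sites cannot be told apart.

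In a brain library a small set of transcripts usually takes a large part of the reads. Such transcripts commonly code for ribosomal proteins, tubulins, calmodulins, synaptic vesicle proteins and glial enzymes. The areas Dl and Dm are regarded as counterparts of the mammalian hippocampus and basolateral amygdala and are studied for their part in learning and social behaviour. The files do not pair identifiers with names, so no member is assigned to any of these classes, and the labelled tissue was not checked against marker genes.

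Outside fish 19, gene models held 26092 to 88153 counts per fish, which was 5.82% to 7.62% of the records in each library. A count of 3 equalled 34.0 CPM in the deepest and 115 CPM in the shallowest of these libraries. Members were well above this, with a median member count of 82.5 to 248 per fish. Fish 19 had 3868 gene counts and stood apart in its composition, so its values are given separately.

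Levels fell steeply over the first ranks and slowly afterwards. Ldim_g24526 ranked first with 19031 ± 3393 CPM (SD, n = 17), from 14280 through a median of 17936 to 25631 CPM. It was first or second in every one of the 17 fish. It held 1.90% of the gene counts and lay 10.6 times above rank 100.

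Behind it, Ldim_g2848 had 11797 ± 2582 CPM and Ldim_g7350 had 11033 ± 1390 CPM (SD, n = 17). These 3 were the only members with a mean over 10000 CPM. Another 10 members lay between 5000 and 10000 CPM, 54 between 2500 and 5000 CPM, and 33 under 2500 CPM, with a median of 3009 CPM over the list. The step from rank 10 to rank 100 was 3.49-fold.

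Ranks 4 to 10 were held by Ldim_g5172 at 8728 ± 3336 CPM, Ldim_g7679 at 7466 ± 1611, Ldim_g3857 at 6617 ± 794, Ldim_g22109 at 6577 ± 6095, Ldim_g13675 at 6553 ± 1449, Ldim_g11004 at 6365 ± 921 and Ldim_g17713 at 6289 ± 758 CPM (SD, n = 17). The last 5 means differed by less than the SD of any of these models, so their order is not resolved. Ldim_g3857 and Ldim_g22109 had nearly the same mean and very different spreads: 5285 to 8622 CPM in Ldim_g3857, and 1183 to 22091 CPM around a median of 4687 in Ldim_g22109.

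The threshold fell on a flat stretch. Ldim_g5921 at rank 99 had 1801 ± 303 CPM and Ldim_g22243 at rank 100 had 1800 ± 377 CPM, while Ldim_g2543, the first model left out, had 1798 ± 397 CPM and Ldim_g11232, the next, had 1754 ± 313 CPM. Models just inside and just outside the list were thus as abundant as each other within the spread between fish. When the list was drawn again without 1 fish at a time, 99 to 100 of the members were chosen again.

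**Figure D1:**
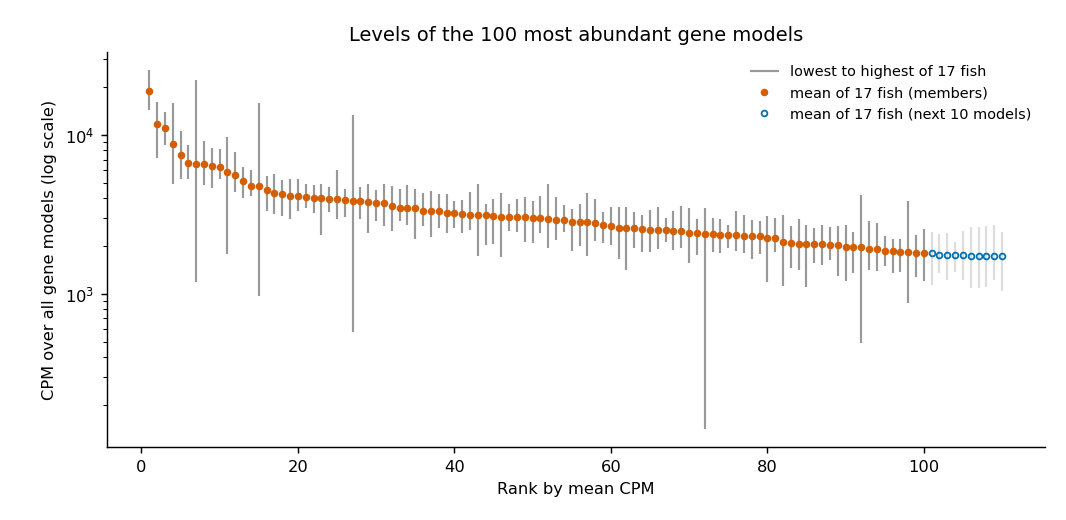
Level of each member by rank; points are means over 17 fish on a log axis in CPM and lines run from the lowest to the highest fish. The first member lies 10.6 times above rank 100, the levels run on without a step into the next 10 models, and 4 members have lines that span at least 10-fold.

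The members together took 35.8% ± 2.37 of the gene counts (SD, n = 17). The first 5 took 5.81%, the first 10 took 9.05%, the first 50 took 24.2%, and 220 models were needed to reach 50% of the counts. The next 100 models added less, since the first 200 took 48.4%. The first 500 took 63.3% and the first 1000 took 74.0%.

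At Clam Gardens, where the share was highest, the members took 39.1%, 42.2% and 37.5% of the gene counts in fish 8, 9 and 10. At The Crest they took 32.8%, 34.7%, 32.1%, 34.3% and 37.7% in fish 11 to 15. At Osprey the share ran from 34.5% through a median of 35.1% to 35.8%, and at Watson's Bay it was 35.2% in fish 17 and 36.7% in fish 20. Each Clam Gardens fish lay above the 9 low-density fish of the ranking, while The Crest fish spread on both sides of them and reached into the Clam Gardens range through fish 15. The 7 Osprey fish lay within a narrow band.

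The mean share was 39.6% ± 2.40 for Clam Gardens (SD, n = 3) and 34.3% ± 2.17 for The Crest (n = 5), with 35.2% ± 0.552 for Osprey (n = 7) and 35.9% ± 1.02 for Watson's Bay (n = 2). By density it was 36.3% ± 3.44 in high-density fish (n = 8) and 35.4% ± 0.674 in low-density fish (n = 9), with full overlap. The widest exact Clopper-Pearson 95% interval among these fish, that of Clam Gardens fish 9, ran from 41.6% to 42.8%, and such intervals cover counting error only. Taking each fish's members from a list drawn without that fish gave 35.8% ± 2.38.

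Depth moved with the share among high-density fish. The shallowest library, Clam Gardens fish 9 with 26092 gene counts, had the highest share, and the deepest at The Crest, fish 11, 13 and 14 with 88153, 79083 and 82960 counts, had the 3 lowest. At Osprey the deepest fish, 6 and 7 with 50216 and 54648 counts, had the highest shares of the site, and fish 3 with 32973 counts had the lowest. The part of depth in the differences among sites was not tested.

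Some members took very unequal shares among high-density fish. Ldim_g22109, Ldim_g22111 and Ldim_g12384, summed after their values were seen, held 4.99% of the gene counts in Clam Gardens fish 9 and 5.06% in The Crest fish 15, against 0.791% to 2.54% in the other high-density fish and 0.273% to 1.15% in low-density fish. The other 97 members held 36.7% ± 1.55 in Clam Gardens fish (SD, n = 3) and 32.2% ± 1.21 in The Crest fish (n = 5), against 34.6% ± 0.523 in Osprey fish (n = 7) and 34.8% ± 1.07 in Watson's Bay fish (n = 2). By these means Clam Gardens was the highest site and The Crest the lowest, as with all members. The part of these 3 models in the differences among sites was not tested.

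**Figure D2:**
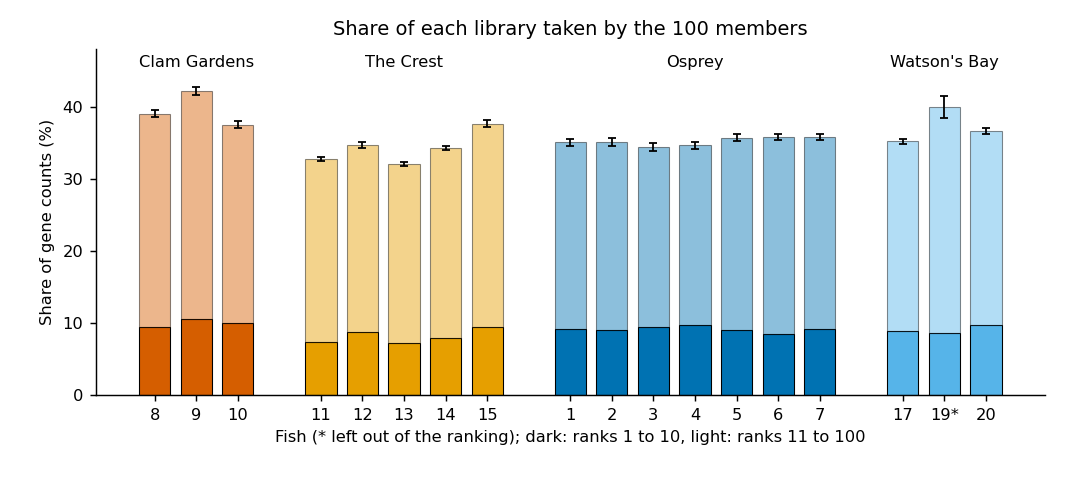
Share of gene counts (percent) taken by ranks 1 to 10 (dark) and 11 to 100 (light) in each fish, with exact 95% intervals of the sum. Clam Gardens fish reach 37.5% to 42.2%, The Crest fish 32.1% to 37.7%, the Osprey fish lie between 34.5% and 35.8%, and fish 19, outside the ranking, lies at 40.0%.

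Most of the list was also found in single fish. Each of these fish entered the ranking, so part of this overlap was set by the rule. Of each fish's own 100 most abundant models, 85 to 95 were members. In 17 of 17 fish at once, 64 members were in the top 100 and 97 in the top 200, and 98 members were in the top 100 of at least 9 fish. The Crest fish 11 shared the fewest: its own first 100 models held 36.8% of its counts, against 32.8% for the members.

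The order of the members was also much the same between fish, as a description across members that share their libraries. Spearman's rho over the 100 members had a median of 0.833 in 35 pairs of fish from 1 site, from 0.684 to 0.906, and of 0.779 in pairs from different sites, from 0.407 to 0.918. The lowest value joined Clam Gardens fish 9 and Osprey fish 3. Osprey fish 3 had a median rho of 0.793 with other Osprey fish and of 0.530 with fish of other sites.

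Watson's Bay fish 19 gave values from a library outside the ranking. Members took 40.0% of its counts (exact Clopper-Pearson 95% interval 38.4 to 41.5), 77 of its own first 100 models were members, and 99 members had a count. The order was looser, with a Spearman's rho of 0.445 against the 17-fish means over the 100 members. The median member count in fish 19 was 13. Counting error at that depth lowers both this rho and the overlap of 77, and its part was not tested. Ldim_g2848 came first there with 26629 CPM from 103 counts (exact 95% interval 21786 to 32203), above the 7157 to 16076 CPM of the other fish, and Ldim_g24526 had 8532 CPM from 33 counts (5880 to 11961), below their lowest value of 14280. The interval lay outside the range of the 17 fish for 13 members, 9 above (3.1% of the 677 models tested between sites) and 4 below (0.591%). Relative to the level, these intervals are wider for less abundant models. One of these 4 had 0 of 3868 counts, which allows up to 953 CPM by this interval and 776 CPM at the floor of 3 counts, against 1198 CPM in the lowest other fish.

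Most members varied little among fish. The coefficient of variation (CV, the SD as a percentage of the mean) over 17 fish had a median of 15.9% and was under 20% in 78 members. In 70 members the highest fish was less than 2 times the lowest. In the next 100 models the median CV was 22.6%, 30 were under 20%, and in 22 the highest fish was under 2 times the lowest. Counting error is larger for these less abundant models, so it was separated.

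Within sites the median CV of the members was 14.1%, and the median that counting alone gave was 8.95%. The part beyond counting had a median of 11.0%, against 16.9% in the next 100 models. The within-site variance exceeded counting variance more than 2-fold in 68 members and in 69 of the next 100 models, and more than 10-fold in 10 members and in 6 of the next 100. The first 10 ranks, where counting error is smallest, had a median of 16.3% beyond counting, ranks 11 to 50 had 11.3%, and ranks 51 to 100 had 9.90%.

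The 3 steadiest members were Ldim_g2874 at rank 75, Ldim_g19567 at rank 95 and Ldim_g13082 at rank 67. Their variance within sites was 0.601, 0.612 and 0.759 times the counting variance, so no spread beyond counting was detectable at this depth. With fish 19 included Ldim_g2874 had 10.3% beyond counting, and after scaling by trimmed mean of M values (TMM) Ldim_g13082 had 2.75%. Ldim_g2874 had 2613, 2721 and 2389 CPM at Clam Gardens, 2371, 2230, 2339, 2158 and 2550 at The Crest, 1984 to 2616 around a median of 2367 at Osprey, and 1935 and 2034 CPM at Watson's Bay. Both Watson's Bay fish lay below the high-density fish, and Osprey covered nearly the whole range. In all, 5 members had a within-site variance at or under that of counting. Among the first 10 ranks the steadiest was Ldim_g3857, with 5.86% beyond counting.

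At the other end stood Ldim_g12384, Ldim_g22111 and Ldim_g22109, with 82.3%, 80.1% and 78.9% beyond counting. The next member, Ldim_g14909 at rank 72, had 40.4% and was picked out after its values were seen. Its spread of 24.6-fold rested on 1 fish: Clam Gardens fish 10 had 6 counts (141 CPM), and the other 16 fish had 1097 to 3463 CPM. Clam Gardens fish 8 and 9 had 3341 and 3411 CPM, near the top of that range. No other member had fewer than 10 counts in any of the 17 fish.

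**Figure D3:**
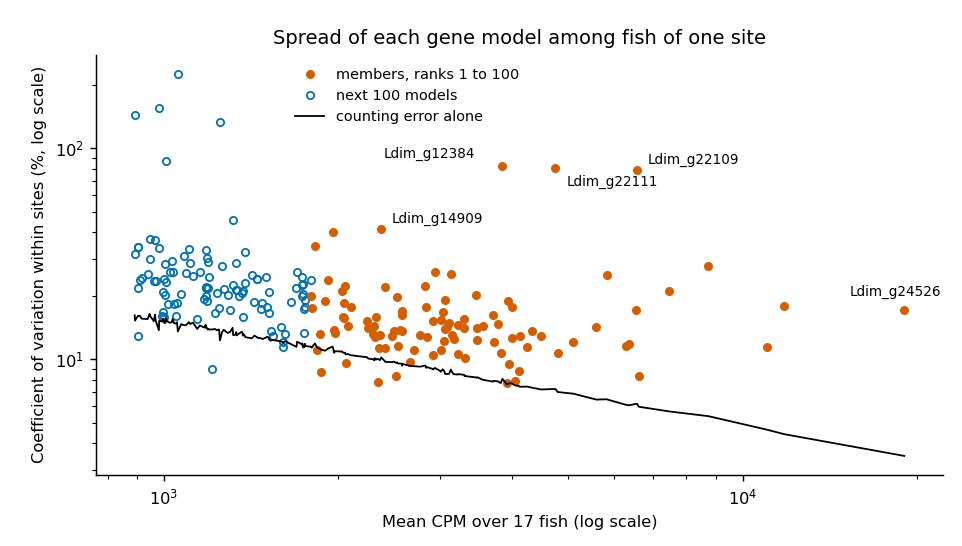
Coefficient of variation within sites (percent, log axis) against mean CPM (log axis) for members and for the next 100 models, with the value that counting error alone gives. Most members lie above the counting line, with a median of 14.1% against 8.95%, and Ldim_g12384, Ldim_g22109 and Ldim_g22111 lie near 80%.

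These 3 variable members moved together from fish to fish. Over 17 fish, on log2 CPM with the site mean subtracted, Pearson's r was 0.989 between Ldim_g22109 and Ldim_g22111, 0.966 between Ldim_g22109 and Ldim_g12384, and 0.955 between Ldim_g22111 and Ldim_g12384. These were the highest values among 4950 pairs of members, whose median was 0.0740 and whose lowest was -0.860. All points share their libraries and depth, and the values are a description. The numbers in the identifiers of Ldim_g22109 and Ldim_g22111 are 2 apart, the closest of any members. Whether numbering follows genome order is not given in the sources used here, and whether the 3 share reads as near-identical copies was not tested.

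Across the 4 sites 8 of the 100 members differed (edgeR quasi-likelihood F test, adjusted p under 0.05 over 677 tested models), against 2.07% of all models tested and 6 of the 577 other models. All 100 members passed the filter on low counts. Some called models entered the list through the fish in which they were high. Ldim_g12384 averaged 1680 CPM in low-density fish, and Ldim_g414 and Ldim_g6865 averaged 1221 and 1339 CPM in high-density fish. Ldim_g11870 averaged 1718 CPM at Osprey. These means lie under the 1800 CPM of rank 100. The share of members called is therefore partly set by the rule and is given as a description. Calls came from opposite directions: 4 of the 8 had their highest site mean at Clam Gardens and 4 at Osprey. Those highest at Clam Gardens included Ldim_g22109, Ldim_g22111 and Ldim_g12384, which moved together from fish to fish and are not separate evidence. Among those highest at Osprey, Ldim_g5172 had a Pearson's r of 0.804 with Ldim_g414 and of 0.764 with Ldim_g6865, with the site mean subtracted. These calls are not fully separate evidence either. The highest r of Ldim_g7292 with any member was 0.606. Members also had less fitted variation among fish of a site, with a median edgeR coefficient of 0.146 against 0.195 for the other tested models. EdgeR draws these values toward a trend with abundance, and they include variation from slice and library. Their part in the share called was not tested. In a slice of tissue, fewer cells of a type and less RNA per cell cannot be told apart.

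Ldim_g12384 had the smallest p across sites. Its levels were 2667, 13414 and 6393 CPM at Clam Gardens, 3902, 4911, 3654, 2423 and 12904 CPM at The Crest, 576 to 1954 CPM around a median of 1653 at Osprey, and 2530 and 2208 CPM in Watson's Bay fish 17 and 20. Every Osprey fish lay below the other 10 fish tested, which was true of 0.148% of tested models, and Clam Gardens fish 9 and The Crest fish 15 were far above the rest. The edgeR adjusted p was 0.00190. On the log2 scale The Crest exceeded Osprey by 1.95 (SE 0.35, edgeR adjusted p = 0.00154) and Clam Gardens exceeded Osprey by 2.34 (SE 0.39, edgeR adjusted p = 0.00161).

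Ldim_g22109 had 4850, 20696 and 11288 CPM at Clam Gardens, 5683, 7787, 7359, 3291 and 22091 CPM at The Crest, 1183 to 3939 CPM around a median of 2989 at Osprey, and 4928 and 4687 CPM at Watson's Bay. Ldim_g22111 had 3610, 15790 and 7751 CPM at Clam Gardens, 4617, 5282, 4540, 2194 and 15608 CPM at The Crest, 970 to 2826 CPM around a median of 2092 at Osprey, and 4035 and 3893 CPM at Watson's Bay. In both, Clam Gardens fish 9 and The Crest fish 15 were again the highest, The Crest fish 14 fell within the Osprey range, and the Watson's Bay fish lay above every Osprey fish. The edgeR adjusted p across sites was 0.00510 for Ldim_g22109 and 0.00525 for Ldim_g22111.

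Ldim_g5172, the fourth most abundant model, had its highest site mean at Osprey and its lowest at The Crest. It had 10642, 6822 and 9156 CPM at Clam Gardens, 5059, 5067, 4906, 6642 and 5069 CPM at The Crest, 7667 to 15831 CPM around a median of 12357 at Osprey, and 6384 and 9898 CPM at Watson's Bay (edgeR adjusted p = 0.00531 across sites). The Crest fish lay below every Osprey fish, and the log2 difference was -1.02 (SE 0.17, edgeR adjusted p = 0.000967). Clam Gardens and Watson's Bay overlapped Osprey, with Watson's Bay fish 17 also within The Crest range. Clam Gardens and Osprey differed by -0.33 (SE 0.20, edgeR adjusted p = 0.496). In fish 19, Ldim_g5172 had 1551 CPM from 6 counts.

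Ldim_g7292 and Ldim_g414 were lowest at The Crest and highest at Osprey. Ldim_g7292, at rank 11, had 4634, 5136 and 3934 CPM at Clam Gardens, 3017, 3913, 4287, 5943 and 1782 CPM at The Crest, 6413 to 9636 CPM around a median of 7411 at Osprey, and 7839 and 3641 CPM at Watson's Bay. Every high-density fish lay below every Osprey fish, and the 2 Watson's Bay fish fell on either side of the gap. Ldim_g414, at rank 92, had 1617, 920 and 1991 CPM at Clam Gardens, 976, 489, 1264, 1772 and 737 CPM at The Crest, 1772 to 4185 CPM around a median of 3067 at Osprey, and 1174 and 2131 CPM at Watson's Bay. Clam Gardens and Watson's Bay overlapped Osprey, and the highest fish of The Crest met the lowest of Osprey. The edgeR adjusted p across sites was 0.0110 for each.

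The remaining 2 calls fell outside the rule for named models and are named after their values were seen. Ldim_g6865, at rank 98, had 2425, 881 and 1218 CPM at Clam Gardens, 1248, 959, 1543, 1362 and 1075 CPM at The Crest, 1533 to 3852 CPM around a median of 2676 at Osprey, and 1042 and 1123 CPM at Watson's Bay (edgeR adjusted p = 0.00841). Here both Watson's Bay fish lay with The Crest, below every Osprey fish. Ldim_g11870, at rank 84, had 2748, 2951 and 2670 CPM at Clam Gardens, 1917, 2133, 1884, 2037 and 2181 CPM at The Crest, 1413 to 1991 CPM around a median of 1786 at Osprey, and 2382 and 2111 CPM at Watson's Bay (edgeR adjusted p = 0.0228). All 3 Clam Gardens fish lay above the other 14 fish, the lowest at 2670 CPM against 2382 CPM in the next fish, and this call was lost without any 1 of them (edgeR adjusted p = 0.0791 to 0.114) and without Osprey fish 3 or 4 (edgeR adjusted p = 0.0549 and 0.0655). When log2 library size was added to the fit, 4 of these 8 calls were lost: Ldim_g5172 (edgeR adjusted p = 0.363), Ldim_g6865 (0.105), Ldim_g414 (0.170) and Ldim_g11870 (0.0506). The differences between pairs of sites kept their sign: with this term The Crest minus Osprey was -0.82 on the log2 scale for Ldim_g5172, -0.89 for Ldim_g6865 and -1.37 for Ldim_g414, beside -1.02, -0.98 and -1.35 without it. Clam Gardens minus Osprey was 0.69 for Ldim_g11870 with the term and 0.70 without it. The calls that were kept also moved. For Ldim_g12384, Ldim_g22109 and Ldim_g22111, The Crest minus Osprey was 2.55, 2.36 and 2.39 with the term, beside 1.95, 1.81 and 1.79 without it. Clam Gardens minus Osprey was 1.99, 1.85 and 1.89 with the term, beside 2.34, 2.17 and 2.24. For Ldim_g7292, The Crest minus Osprey was -1.29 with the term and -0.99 without it.

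In pairs of sites, edgeR called members only against Osprey, the site with most fish. Against Osprey, Clam Gardens had 5 members higher, with 1.03% of all tested models called in that direction, and 0 lower (0.148% of all; at unadjusted p under 0.05, 4 members and 5.32% of all). Against Osprey, The Crest had 3 members higher (1.18% of all) and 4 lower (1.03% of all). Without Clam Gardens fish 9 the 5 became 0 (4 of all 754 models tested). Other settings gave 1 (robust dispersion, 1 of all 677) to 10 (DESeq2, 14 of all 15236 with a count). The 3 became 1 with limma voom (4 of all 677) and 0 with robust dispersion (3 of all). The 4 became 2 with robust dispersion (5 of all) and 1 with library size as a covariate (1 of all). The 5 were Ldim_g12384, Ldim_g22109, Ldim_g22111, Ldim_g11870 and Ldim_g25406, the last named after its values were seen. Of these, Ldim_g12384 and Ldim_g11870 averaged 1483 and 1718 CPM at Osprey. Of the 4 lower at The Crest, Ldim_g414 and Ldim_g6865 averaged 1048 and 1237 CPM there. These means lie under the 1800 CPM of rank 100, so the counts of members called in these pairs are partly set by the rule.

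Between sites of 1 density, and between either high-density site and Watson's Bay, edgeR called 0 members, as did DESeq2 and limma voom. Of all models 0.295% were called higher in The Crest than in Clam Gardens, and 0% in the other directions. At unadjusted p under 0.05, The Crest against Clam Gardens had 1 member higher (5.47% of all tested models) and 12 lower (2.95%). Clam Gardens against Watson's Bay had 10 higher (3.84%) and 0 lower (4.43%). The Crest against Watson's Bay had 2 higher (2.66%) and 3 lower (1.48%), and Osprey against Watson's Bay had 4 higher (6.5%) and 4 lower (2.81%). Watson's Bay held 2 fish in these comparisons. Some edgeR settings did call members in these pairs. A filter of CPM over 5 left 5912 models. Of these members, 3 were then higher in Clam Gardens than in Watson's Bay (12 of all models) and 2 in The Crest (23 of all). In Osprey against Watson's Bay, 2 were lower (9 of all) and 1 was higher (2 of all). With no filter (15236 models) 3 were higher in Clam Gardens (12 of all) and 2 in The Crest (31 of all), and 3 were lower in Osprey (11 of all). With library size as a covariate, 1 was lower in Osprey than in Watson's Bay (2 of 677). With library sizes from models outside the list, 3 were lower in The Crest than in Clam Gardens (3 of 664).

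**Figure D4:**
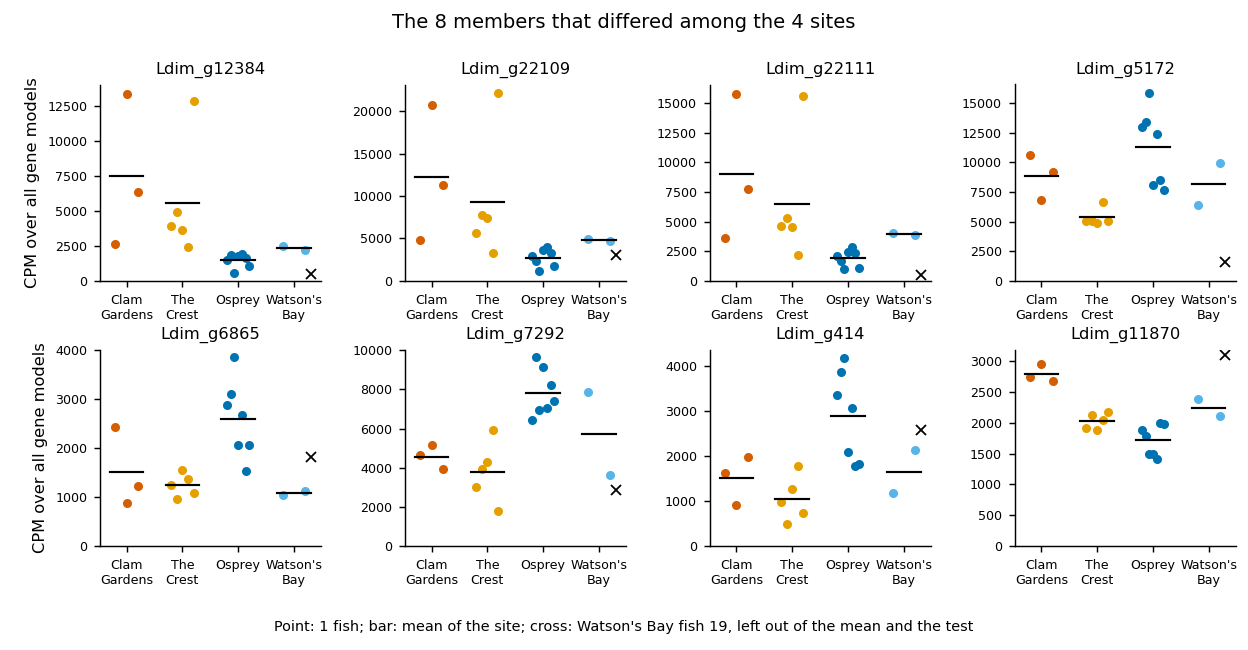
CPM of the 8 members called across sites in every fish; points are fish, bars are site means, and crosses mark fish 19. In Ldim_g12384, Ldim_g22109 and Ldim_g22111 single fish at Clam Gardens and The Crest reach 12904 to 22091 CPM, while in Ldim_g5172, Ldim_g6865, Ldim_g7292 and Ldim_g414 the Osprey fish are high.

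Clam Gardens had the highest site mean for most members, in 58 by CPM (26.1% of all tested models), or in 57 (26%) after TMM scaling. Osprey was highest for 20 members in CPM (29.1%), Watson's Bay for 17 (31.9%) and The Crest for 5 (12.9%), or for 9 (20.1%) after scaling. In 5 members every Clam Gardens fish lay above all the others, which held for 0.886% of tested models. No member had both Watson's Bay fish above all the others (0.443% of tested models). The differences were small: the highest site mean was under 1.5 times the lowest in 89 members, with a median ratio of 1.27. In the next 100 models this held for 79, with a median ratio of 1.33.

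Between densities 3 members were higher in high-density fish (0.739% of all tested models) and 2 were lower (0.295% of all) at an edgeR adjusted p under 0.05. All 5 were also called across sites, in a test on the same counts. Ldim_g12384 and Ldim_g414 entered the list through the density in which they were high, so these counts are partly set by the rule. The 3 higher ones moved together from fish to fish (Pearson's r 0.955 to 0.989), so they are not separate evidence. Fish were the replicates in this fit, so its p-values do not measure the spread between sites of a density. Ldim_g12384 averaged 6284 ± 4426 CPM in high-density fish (SD, n = 8) and 1680 ± 583 CPM in low-density fish (n = 9), and the fitted log2 difference was 1.91 (SE 0.30, edgeR adjusted p = 0.000265), and 7 of the 8 fish from high-density sites exceeded all those from low-density sites. Ldim_g22109 averaged 10381 ± 7202 CPM in high-density fish and 3195 ± 1258 CPM in low-density fish, and the log2 difference was 1.72 (SE 0.31, edgeR adjusted p = 0.00123). For Ldim_g22111 the means were 7424 ± 5342 CPM in high-density fish and 2376 ± 1089 CPM in low-density fish, and the log2 difference was 1.65 (SE 0.32, edgeR adjusted p = 0.00352). High-density fish were above the low-density median in 8 of 8 cases for Ldim_g22109 and in 7 of 8 for Ldim_g22111.

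The 2 members that were lower at high density were the rank 11 model and the rank 92 model of the site comparison. Ldim_g7292 averaged 4081 ± 1276 CPM in high-density fish and 7370 ± 1745 CPM in low-density fish, and the fitted log2 difference was -0.82 (SE 0.17, edgeR adjusted p = 0.00513). Ldim_g414 averaged 1221 ± 531 CPM in high-density fish and 2612 ± 1044 CPM in low-density fish, and the fitted log2 difference was -1.03 (SE 0.24, edgeR adjusted p = 0.0197). All 8 high-density fish were under the low-density median in both models. In Ldim_g414, 4 of the 8 were under every low-density fish, and in Ldim_g7292 2 of the 8 were. The call of Ldim_g414 was lost without The Crest fish 12 or Osprey fish 2, 3 or 5, with log2 differences of -0.97 to -0.88. With sites weighted equally neither was called, at -0.71 for Ldim_g414 and -0.66 for Ldim_g7292.

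Other settings ended some of these calls. With robust dispersion in edgeR no member was called across sites or between densities (28, 26 and 7 members at unadjusted p under 0.05 across sites, higher and lower), and with limma voom 4, 0 and 0 were called. The share over all models is not given for the unadjusted counts under robust dispersion, so those counts cannot be compared with it. In the main edgeR fit the unadjusted counts were 22, 24 and 6 members, beside 12%, 5.91% and 6.2% of all tested models. The count lower at high density was thus near the share over all models. Without both Clam Gardens fish 9 and The Crest fish 15, chosen after seeing the data, the log2 difference was 1.26 for Ldim_g12384 (edgeR adjusted p = 0.000666), 1.08 for Ldim_g22109 (edgeR adjusted p = 0.0130), 0.98 for Ldim_g22111 (edgeR adjusted p = 0.0621) and -0.92 for Ldim_g414 (edgeR adjusted p = 0.0911).

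Of the first 10 ranks, only Ldim_g22109 was called between densities. Ldim_g24526 averaged 17480 ± 2679 CPM in high-density fish and 20410 ± 3493 CPM in low-density fish, and the fitted log2 difference was -0.19 (SE 0.11, edgeR adjusted p = 0.499), with the groups overlapping. Ldim_g3857 averaged 6661 ± 1076 CPM in high-density fish and 6578 ± 495 CPM in low-density fish, and the fitted log2 difference was 0.05 (SE 0.09, edgeR adjusted p = 0.863).

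Over the whole list the median log2 difference was 0.09, beside -0.02 over all tested models, and 68 members had a positive sign (45.9% of all tested models). In 24 members both high-density site means lay above both low-density site means in CPM (11.4% of all tested models), or in 38 (15.5%) after TMM scaling. In 17 members they lay below (20.5%), or in 15 (17.3%) after scaling.

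One member separated the densities fish by fish, 0.148% of all tested models doing so, and it is named after its values were seen. Ldim_g13772, at rank 80, had 2314 to 3104 CPM in the 8 high-density fish and 1179 to 2305 CPM in the 9 low-density fish. The gap between the groups was narrow, from The Crest fish 13 at 2314 CPM to Watson's Bay fish 20 at 2305 CPM. Its log2 difference was 0.35 (SE 0.11, edgeR adjusted p = 0.210), which did not pass the threshold, and low-density fish 19 had 2844 CPM from 11 counts.

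**Figure D5:**
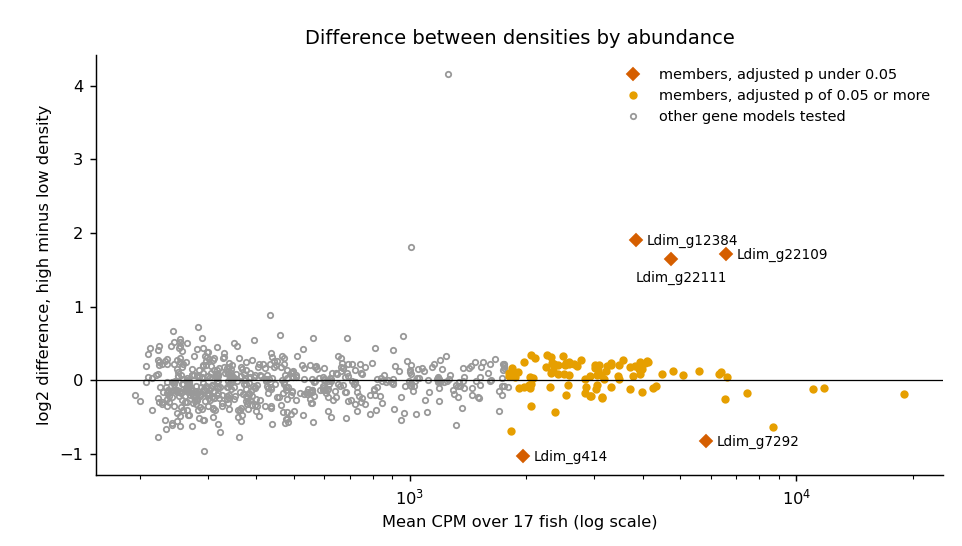
Fitted log2 difference, high minus low density, against mean CPM (log axis) for members and for the other tested models. The members lie at the abundant end with a median of 0.09, and the 5 called members lie between 1.65 and 1.91 or at -0.82 and -1.03.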

How the data were processed

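The authors deposited raw counts per gene model, 1 table per fish, with 28134 models and 5 summary entries. Per the submitters' processing notes, the tools were cutadapt 2.8, BWA and SAMtools, with no roles stated. How reads were counted, on which strand and against which build, and whether PCR copies were removed, is not given in the sources used here, so intervals cover counting error only. The summary entries stayed out of all totals. Over 17 fish they held 68.4% of records outside gene models, 21.7% not aligned, 3.49% of low mapping quality and 0.0102% ambiguous, and gene models held 6.44% ± 0.585 (SD, n = 17). A second set of counts against another species' transcripts was not used here. Each labelled sample is taken as 1 fish. Nothing in the labels describes pooling, and p-values measure the spread between these samples. Fish of 1 site are not replicates of a density, so p-values by density do not measure the spread between sites of 1 density.

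CPM is over all gene models unless TMM is named. The spread beyond counting is a CV. It is the square root of the within-site variance minus the Poisson variance, as a percentage of the mean, and 0 where that difference is negative. Tests used edgeR 4.0.16 in R 4.3.3 on 17 fish: filterByExpr with a minimum count of 10 (234 CPM at the median library), TMM, and quasi-likelihood F tests with a term per site or for density. This kept 677 models with 66.9% of gene counts. P-values were adjusted over these by the Benjamini-Hochberg method at 0.05. SE is the log2 difference divided by the square root of F. The script was tested on simulated data. Alternatives included DESeq2 1.42.0 and limma 3.58.1 (voom).

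The members and lists were chosen with earlier results of these data known. Identifiers are named by rule: the first 10 ranks, ranks 99 to 102, the 3 steadiest and 3 most variable members, the 3 pairs that moved together most, at most 2 members each way by density, and the 4 with the smallest p across sites. Exceptions are marked in the text. Gene lists and marker lists could not be matched without names, and no sequence is shown.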

Additional observations from a re-analysis of the deposited data

Results flagged for a closer look

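Single fish were compared with the others of their site or density by the distance to the nearest fish as a part of the whole range of the group. Of 100 such comparisons over 21 of the named members and the library measures, 8 had a fish that stood apart. Some members were named for their spread, and site groups lie within density groups. The 5% that chance gives in independent comparisons therefore cannot be set against this count. The Crest fish 15 was high in 3 members that also move together: 12904 CPM in Ldim_g12384, 22091 CPM in Ldim_g22109 and 15608 CPM in Ldim_g22111, where the next The Crest fish had 4911, 7787 and 5282 CPM. In Ldim_g5172, The Crest fish 14 had 6642 CPM and the next fish of the site 5069. In Ldim_g11004, The Crest fish 12 had 7258 CPM and the next 5944. In Ldim_g13082, one of the steadiest members, Osprey fish 6 had 2848 CPM and the next fish 2465, both among Osprey fish and among all low-density fish. In Ldim_g6865, Clam Gardens fish 8 had 2425 CPM among high-density fish and the next had 1543.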

How the results depend on the processing

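Of 8 members called across sites, 4 were called with limma voom, 0 with robust dispersion and 4 with library size as a covariate; without 1 fish at a time the count ran from 7 to 9. The 3 members higher at high density became 0 with limma voom and 0 with robust dispersion (23 and 26 at unadjusted p under 0.05) and ran from 3 to 3 without 1 fish. Without Clam Gardens fish 9 and The Crest fish 15 together, the call of Ldim_g22111 was lost (edgeR adjusted p = 0.0621). The 2 lower became 0 with limma voom, 0 with robust dispersion (8 and 7 unadjusted), 1 with library size as a covariate, 0 with sites weighted equally (4 unadjusted) and 1 without Clam Gardens fish 9 and The Crest fish 15; without 1 fish they ran from 1 (The Crest fish 12 or Osprey fish 2, 3 or 5) to 4 (Clam Gardens fish 8). Unadjusted counts under these settings are given without the share over all models. In the main edgeR fit 24 members were higher and 6 lower at unadjusted p under 0.05, beside 5.91% and 6.2% of all tested models. For the 8 members called across sites and for Ldim_g24526, Ldim_g3857 and Ldim_g13772, the sign of the density difference was the same under each setting run. Over all models the calls across sites, higher and lower were 14, 5 and 2, against 59, 42 and 6 of 5912 with a filter of CPM over 5, 93, 79 and 7 of 15236 with no filter, 28, 24 and 3 with DESeq2, and 7, 0 and 0 with limma voom. The share of the library was 45.4% over the 1576 models with a count in every fish. The median spread beyond counting of 11.0% was 12.0% with TMM scaling and 13.2% with fish 19 included. The cause of these shifts was not tested. Under 4 other rankings 97 to 100 members were chosen again. Equal weighting of sites gives no test across the 4 sites. No paired analysis was possible because the labels carry no replicate numbers shared between groups.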
